A study of Ovis aries with 12 samples.

Results

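A set of 8 genes of the Notch pathway, several of them parts of the segmentation clock, was followed through sheep embryos (Ovis aries) of 2 breeds at 2 ages. The genes were chosen by name from a list of 10 symbols. Of the 26247 genes of the deposited table, 7 carried one of these symbols (JAG1, LFNG, NOTCH1, NOTCH2, HES1, HEY1 and NRARP), and DLL3 was found through the NCBI gene number given in its entry, so that 8 genes are described. DLL1 and HES7 were not matched to an entry and are not analysed here. All 8 genes passed the expression filter in every comparison.

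Notch receptors sit in the cell membrane and are activated by ligands on neighbouring cells. Binding leads to cleavage by ADAM proteases and then by gamma-secretase, and the freed intracellular part enters the nucleus, where it joins RBPJ and Mastermind proteins and switches on target genes, among them repressors of the HES and HEY families. In the presomitic mesoderm, the tissue at the tail end of the embryo that forms the somites, these repressors, the sugar-transfer enzyme LFNG and the inhibitory ligand DLL3 take part in the oscillating circuit called the segmentation clock. Notch is also used in the neural tube, where it keeps progenitors from becoming neurons, and in the walls of growing blood vessels. The assay reads whole embryos, so that an oscillation within a tissue is averaged over all cells of a library.

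The study compared Hulunbuir Short-tail sheep, its experimental breed, with Ujumqin sheep, its control breed. The 4 groups were Ujumqin embryos of day 16, Hulunbuir embryos of day 16, Ujumqin embryos of day 25 and Hulunbuir embryos of day 25, with 3 libraries each. All embryos were dissociated with enzymes before total RNA was taken and sequenced in bulk, and no treatment, transgene or sex is given for any group. No source used here says if a group's 3 libraries are of 3 animals or how many embryos went into each, and the p-values then reflect only the scatter of these libraries, which may be technical. Libraries held 43131962 to 55455815 counts at day 16 and 30464606 to 39643588 at day 25. Library-to-library variation, as edgeR's common biological coefficient of variation, came to 43.8% at day 16 and 18.1% at day 25, so that differences at day 16 were measured less precisely. In bulk RNA, fewer cells of a type and less RNA per cell cannot be told apart. Levels are given as deposited FPKM (fragments per kilobase, scaled to library size), whereas log2 changes with their standard errors come from a count model with TMM scaling. Unless another fit or a left-out library is named, an adjusted p comes from the edgeR quasi-likelihood fit of the 2 groups compared. For the difference between breeds in the age change (the interaction), that fit is of all 12 libraries. The correction is the Benjamini-Hochberg procedure over all genes tested, with a threshold of 0.05.

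The largest fold changes of single genes were between ages. From day 16 to day 25 the receptor gene NOTCH2 fell 6.31-fold in Ujumqin and 5.05-fold in Hulunbuir, while DLL3 rose 6.56-fold and 3.39-fold and NRARP 5.08-fold and 4.54-fold. JAG1 fell in both breeds as well. In Ujumqin, 3 of the 8 genes rose and 2 fell with age, where 30.2% of the 13571 genes tested rose and 32.5% fell. The share called in either direction was thus near the 62.8% of all genes. In Hulunbuir, 2 of the 8 rose and 3 fell, where 19.9% of 13913 genes rose and 20.9% fell. Between breeds at day 25, 5 of the 8 genes were higher in Hulunbuir and none was lower, and LFNG differed most, 2.60-fold; 24.9% of the 13682 genes tested were higher and 24.3% lower. Between breeds at day 16, none of the 8 passed the threshold in the edgeR fit, in which 0.0226% of the 13280 genes tested did. At day 16, 3 of the 8 had an unadjusted p under 0.05, as did 20.8% of all genes, and DESeq2 called 1 of the 8 and 11.5% of all genes. With the replicate number as a block, none of the 8 and 2.5% of all genes were called.

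**Figure D1:**
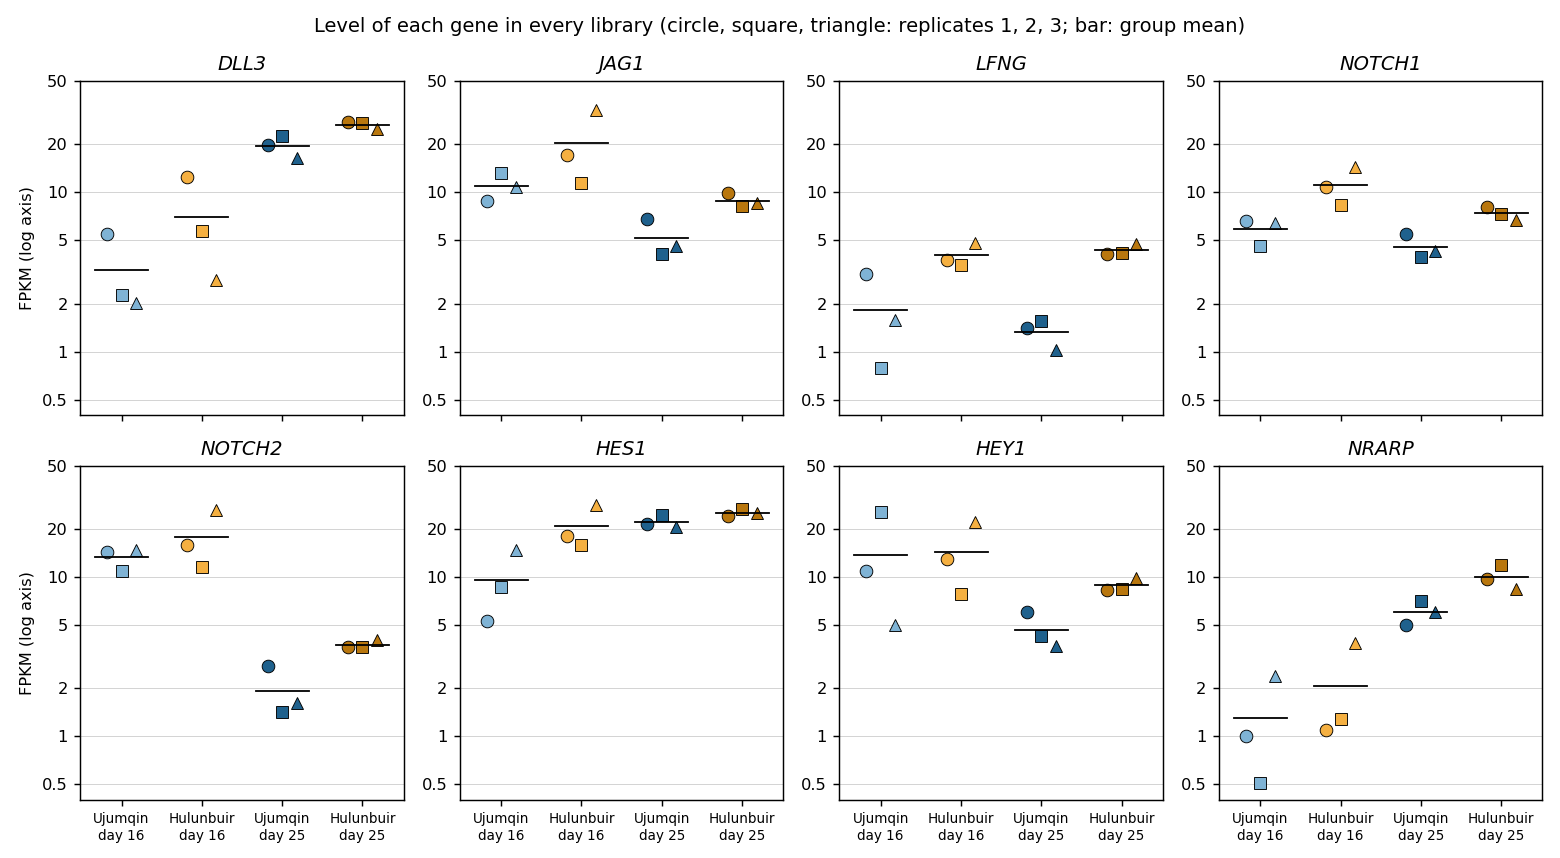
Deposited FPKM (log axis) of the 8 genes in each of the 12 libraries, with the groups along the horizontal axis, 1 symbol per replicate number and a bar at the group mean. NOTCH2 dropped from 10.9 to 26.1 FPKM at day 16 to 1.41 to 3.997 at day 25, DLL3 and NRARP stood highest at day 25, and the day 16 libraries of a group were scattered for most genes.

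DLL3 (ENSOARG00000006280; Oar_v3.1 chromosome 14, 48338586 to 48346333, plus strand) encodes a divergent Delta ligand that does not activate Notch on neighbouring cells and inhibits it within its own cell. Its level was 5.48, 2.26 and 2.03 FPKM in Ujumqin replicates 1, 2 and 3 at day 16, and 19.7, 22.5 and 16.3 at day 25. In Hulunbuir it was 12.5, 5.73 and 2.81 FPKM at day 16, and 27.8, 27.1 and 25.0 at day 25. Each day 25 library lay above every day 16 library, and at day 16 the Hulunbuir libraries spread more widely than the breeds differed. The rise with age was 2.71 ± 0.42 on the log2 scale in Ujumqin (adjusted p = 0.00146) and 1.76 ± 0.51 in Hulunbuir (adjusted p = 0.0302). Between breeds the log2 difference was 1.06 ± 0.64 at day 16 (adjusted p = 0.38) and 0.12 ± 0.12 at day 25 (adjusted p = 0.426, 95% interval -0.15 to 0.39). The Hulunbuir rise lost its call without day 16 replicate 2 (adjusted p = 0.0675) and without any single Hulunbuir day 25 library (0.0721 to 0.0827), with log2 changes of 1.68 to 1.82.

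JAG1 (ENSOARG00000010523; chromosome 13, 3418572 to 3451511, minus strand) encodes an activating ligand of the Jagged class, used in vessels, the ear and bile ducts. It was at 8.85, 13.3 and 10.8 FPKM in Ujumqin at day 16 and at 6.77, 4.12 and 4.63 at day 25. In Hulunbuir it was at 17.1, 11.5 and 33.0 FPKM at day 16 and at 9.88, 8.20 and 8.53 at day 25. Within each breed the 2 ages did not overlap, and the third Hulunbuir library of day 16 stood above the other 11 libraries. With age JAG1 fell by 0.96 ± 0.23 on the log2 scale in Ujumqin (adjusted p = 0.0096) and by 1.29 ± 0.29 in Hulunbuir (adjusted p = 0.0125). At day 25 it was higher in Hulunbuir, by 0.46 ± 0.16 (adjusted p = 0.0367), and at day 16 the difference was 0.79 ± 0.33 (adjusted p = 0.238). The day 25 breed call was lost without each of 5 of the 6 libraries (adjusted p 0.0597 to 0.117, all except Ujumqin replicate 1), and the age calls without Ujumqin day 25 replicates 2 or 3 (0.053 and 0.0515) and Hulunbuir day 25 replicates 2 or 3 (0.06 and 0.0575). The breed call was also lost in the edgeR and voom fits of all 12 libraries (0.326 and 0.0676), and the Hulunbuir age call in limma on log2(FPKM + 1) and log2(FPKM + 0.1) (0.0524 and 0.0534).

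LFNG (ENSOARG00000004992; chromosome 24, 40603433 to 40611924, minus strand) encodes Lunatic fringe, a Golgi enzyme that adds N-acetylglucosamine to the Notch receptor and so changes its response to the ligand classes; in mouse its cyclic expression is part of the clock. At day 25 it was at 1.41, 1.55 and 1.03 FPKM in Ujumqin and at 4.10, 4.16 and 4.77 in Hulunbuir. At day 16 it was at 3.096, 0.794 and 1.58 FPKM in Ujumqin and at 3.75, 3.52 and 4.80 in Hulunbuir. All 6 Hulunbuir libraries lay above all 6 Ujumqin libraries, whatever the age. At day 25 LFNG was higher in Hulunbuir by 1.38 ± 0.25 on the log2 scale (adjusted p = 0.00224), and at day 16 the difference was 1.06 ± 0.52 (adjusted p = 0.29, 95% interval -0.16 to 2.29). With age the log2 change was -0.31 ± 0.53 in Ujumqin (adjusted p = 0.625) and -0.01 ± 0.23 in Hulunbuir (adjusted p = 0.986), and both turn to a positive sign under some alternatives. The day 25 difference kept its call without any single library, and lost it only in the fit of all 12 libraries, whose shared spread is wider (1.34, adjusted p = 0.0536).

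These LFNG levels rest on 40 to 244 counts per library. An unnamed gene entry on the same strand spans LFNG, and its counts were between 0 and 156, so that the counting could have divided fragments between both. Summed over both entries, the TMM-scaled CPM (count scaled to library size) at day 25 was 3.25, 2.58 and 2.62 in Ujumqin and 5.22, 4.23 and 5.65 in Hulunbuir. The breeds did not overlap in the sum either. At day 16 the sum was 3.71, 1.61 and 2.69 CPM in Ujumqin and 7.20, 6.09 and 4.94 in Hulunbuir, again without overlap.

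NOTCH1 (ENSOARG00000003820; chromosome 3, 2878995 to 2901864, plus strand) and NOTCH2 (ENSOARG00000020442; chromosome 1, 96427312 to 96607126, minus strand) encode receptors that share their build and most of their ligands; Notch1 is the receptor needed for regular somites in mouse. NOTCH1 was at 6.59, 4.59 and 6.46 FPKM in Ujumqin and 10.7, 8.34 and 14.5 in Hulunbuir at day 16. At day 25 it was at 5.50, 3.94 and 4.29 FPKM in Ujumqin and 8.06, 7.37 and 6.70 in Hulunbuir. At both ages every Hulunbuir library was above every Ujumqin library. NOTCH1 was higher in Hulunbuir at day 25 by 0.37 ± 0.12 on the log2 scale (adjusted p = 0.0279), and at day 16 the difference was 0.84 ± 0.22 (adjusted p = 0.124, 95% interval 0.33 to 1.36). It fell with age by 0.71 ± 0.16 in Hulunbuir (adjusted p = 0.0119), whereas the change in Ujumqin was -0.23 ± 0.18 (adjusted p = 0.304). The difference between these age changes did not pass the threshold (-0.51 ± 0.24, adjusted p = 0.154).

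The NOTCH1 calls depended on the fit. At day 16 the breed difference passed the threshold in DESeq2 (0.84, adjusted p = 0.0134) and in the fit of all 12 libraries (0.83, adjusted p = 0.0102), and with the replicate number as a block it was 0.85 (adjusted p = 0.0635). At day 25 the breed call was lost without any one of Ujumqin replicates 2 and 3 and Hulunbuir replicates 1 and 2 (0.0714 to 0.0972), and in the fit of all 12 libraries (0.33, adjusted p = 0.207). The call of the fall in Hulunbuir was lost without day 25 replicates 2 or 3 (0.0595 and 0.0703). It was also lost with total count scaling of all 6 libraries (-0.57, adjusted p = 0.0779). In limma on log2(FPKM + 1) and log2(FPKM + 0.1) it was lost as well (-0.51 and -0.56, adjusted p = 0.106 and 0.107).

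NOTCH2 was at 14.3, 10.9 and 14.7 FPKM in Ujumqin at day 16 and at 2.78, 1.41 and 1.62 at day 25. In Hulunbuir it was at 15.9, 11.5 and 26.1 FPKM at day 16 and at 3.63, 3.64 and 3.997 at day 25. Each day 25 library lay below every day 16 library, and the breeds overlapped at day 16 but not at day 25. The fall was 2.66 ± 0.26 on the log2 scale in Ujumqin (adjusted p = 0.00029), where it ranked 705 of 13571 genes by p, and 2.34 ± 0.23 in Hulunbuir (adjusted p = 0.00062), where it ranked 311 of 13913. Under all 17 alternatives in each breed it stayed past the threshold, with log2 changes between -2.88 and -2.30 and between -2.52 and -1.91. At day 25 NOTCH2 was higher in Hulunbuir by 0.65 ± 0.20 (adjusted p = 0.0278), a call lost without each of 5 of the 6 libraries (0.0555 to 0.0885, all except Ujumqin replicate 1) and in the fit of all 12 (0.60, adjusted p = 0.114). At day 16 the difference was 0.33 ± 0.26 (adjusted p = 0.501).

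HES1 (ENSOARG00000020422; chromosome 1, 191624405 to 191627209, minus strand) encodes a transcriptional repressor that is a direct Notch target and turns itself off, which makes it oscillate in many cell types. It was at 5.30, 8.69 and 14.7 FPKM in Ujumqin and at 17.9, 16.0 and 28.4 in Hulunbuir at day 16. At day 25 it was at 21.4, 24.4 and 20.7 FPKM in Ujumqin and at 24.0, 26.7 and 25.2 in Hulunbuir. The 3 Ujumqin libraries of day 16 were the lowest of all 12, and the other 9 overlapped. HES1 rose with age by 1.36 ± 0.35 on the log2 scale in Ujumqin (adjusted p = 0.0128), a call kept in all 17 alternatives, and its change in Hulunbuir was 0.18 ± 0.19 (adjusted p = 0.461). Between breeds it differed by 1.04 ± 0.39 at day 16 (adjusted p = 0.194) and by -0.14 ± 0.12 at day 25 (adjusted p = 0.369, 95% interval -0.41 to 0.14).

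Among the 8 genes, HES1 came nearest to a difference between the breeds in the change with age. Its age change in Hulunbuir minus that in Ujumqin was -1.21 ± 0.41 on the log2 scale (adjusted p = 0.0579). None of the 8 passed the threshold of this interaction in the edgeR fit of all 12 libraries, against 19.2% of the 14595 genes tested, and 1 (HES1) had an unadjusted p under 0.05, as did 35.3% of all genes. HES1 did pass in DESeq2 (adjusted p = 0.0255), in limma voom with a weight per group (0.0374), with the replicate number as a block (-1.26, adjusted p = 0.0399) and without Ujumqin day 16 replicate 3 (-1.60, adjusted p = 0.00829). Over all alternatives its interaction ranged from -1.60 to -0.87, with adjusted p between 0.00829 and 0.175.

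HEY1 (ENSOARG00000008063; chromosome 9, 55828300 to 55830806, minus strand) encodes a related repressor that acts downstream of Notch in vessels, heart and somites. It was at 10.8, 25.6 and 4.98 FPKM in Ujumqin at day 16, the largest coefficient of variation of any of the 8 genes in any group, and at 13.0, 7.80 and 22.1 in Hulunbuir. At day 25 it was at 6.05, 4.28 and 3.68 FPKM in Ujumqin and at 8.32, 8.38 and 9.87 in Hulunbuir. At day 16 the Hulunbuir libraries lay within the Ujumqin range, and at day 25 the breeds did not overlap. HEY1 was higher in Hulunbuir at day 25 by 0.60 ± 0.20 on the log2 scale (adjusted p = 0.0353). That call was lost with the replicate number as a block (0.62, adjusted p = 0.061), without each of 5 of the 6 libraries (0.0661 to 0.119, all except Ujumqin replicate 1), and in the edgeR and voom fits of all 12 libraries (0.475 and 0.202). Its changes with age were -1.46 ± 0.59 in Ujumqin (adjusted p = 0.0635) and -0.77 ± 0.30 in Hulunbuir (adjusted p = 0.0802). They gained a call in 3 of 17 alternatives in Ujumqin and in 2 of 17 in Hulunbuir. Over the alternatives they ranged from -1.92 to -0.66 and from -1.02 to -0.46. The day 16 breed difference of HEY1, -0.08 ± 0.61 (adjusted p = 0.952), had no stable sign.

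NRARP (ENSOARG00000018929; chromosome 3, 786637 to 786906, plus strand) encodes a small ankyrin repeat protein that is switched on by Notch and destabilises the Notch intracellular part, a negative feedback. It was at 1.003, 0.513 and 2.39 FPKM in Ujumqin at day 16 and at 4.98, 7.06 and 5.99 at day 25. In Hulunbuir it was at 1.09, 1.27 and 3.84 FPKM at day 16 and at 9.68, 11.9 and 8.34 at day 25. The ages did not overlap in either breed. The rise was 2.34 ± 0.58 on the log2 scale in Ujumqin (adjusted p = 0.0104) and 2.18 ± 0.50 in Hulunbuir (adjusted p = 0.0127). Between breeds the difference was 0.55 ± 0.72 at day 16 (adjusted p = 0.68) and 0.39 ± 0.29 at day 25 (adjusted p = 0.284). The annotated gene spans 270 bases, and these values rest on 8 to 50 counts per library at day 16 and 49 to 115 at day 25; without Hulunbuir day 25 replicate 2 the Hulunbuir rise had an adjusted p of 0.0558.

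**Figure D2:**
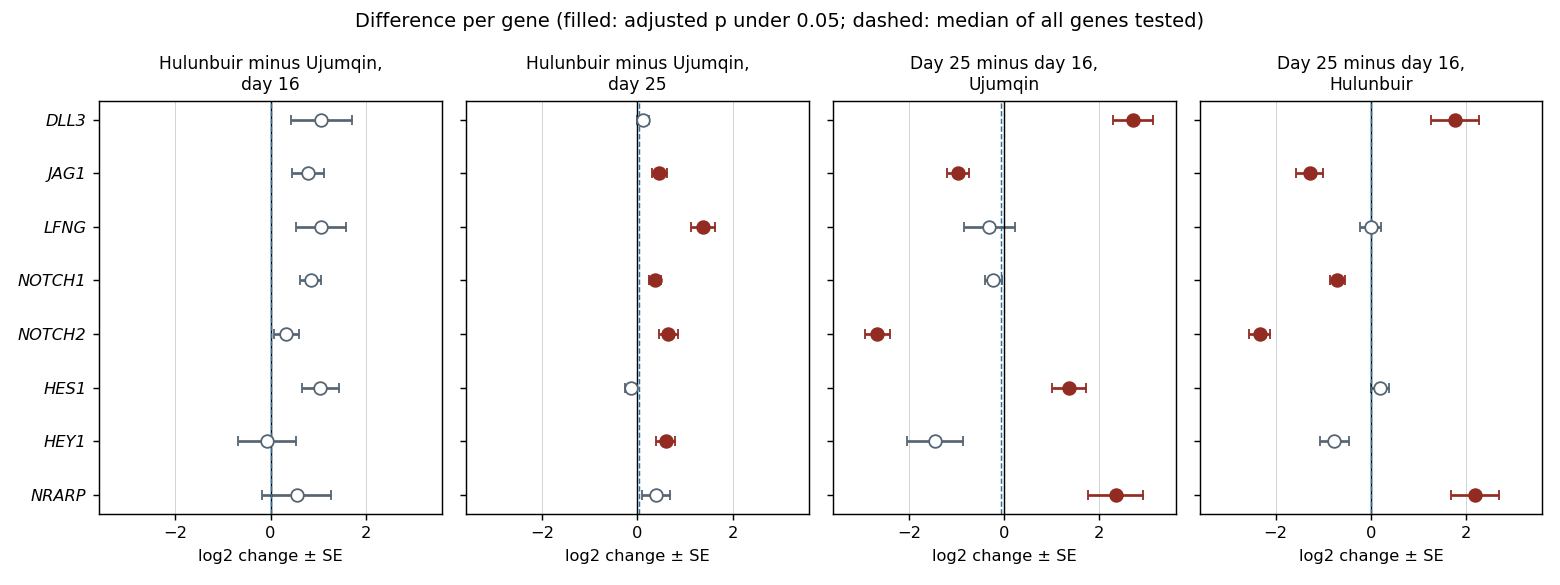
Log2 change ± SE of each of the 8 genes in the 4 comparisons of 2 groups, with filled points for adjusted p under 0.05 and a dashed line at the median of all genes tested. NOTCH2 lies farthest to the left in both age panels (-2.66 and -2.34) and LFNG farthest to the right between breeds at day 25 (1.38).

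Within single libraries the ratio of NOTCH1 to NOTCH2 and that of DLL3 to JAG1 turned over between the ages. Such a ratio of 2 FPKM values does not depend on how libraries are scaled to each other, and it is given as a description without a test. NOTCH1 over NOTCH2 was 0.422 to 0.460 in Ujumqin and 0.553 to 0.725 in Hulunbuir at day 16, and 1.98 to 2.79 and 1.68 to 2.22 at day 25. Of these 2, NOTCH2 was thus the more abundant transcript per length in all 6 day 16 libraries and NOTCH1 in all 6 day 25 libraries. NOTCH3, a receptor gene outside the set, was at 5.395 to 30.74 FPKM at day 16 and 6.077 to 17.44 at day 25. It was above NOTCH1 in every library. Other ligands and receptors did not enter these ratios. DLL3 over JAG1 was 0.170 to 0.619 in Ujumqin and 0.0852 to 0.732 in Hulunbuir at day 16, and 2.91 to 5.47 and 2.81 to 3.30 at day 25. JAG1 exceeded DLL3 in every day 16 library and the reverse held in every day 25 library. HES1 over HEY1 was 0.339, 0.490 and 2.96 in the Ujumqin day 16 libraries, 1.28 to 2.05 in Hulunbuir at day 16, and 2.55 to 5.69 at day 25. Only the first 2 Ujumqin libraries of day 16 held more HEY1 than HES1.

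**Figure D3:**
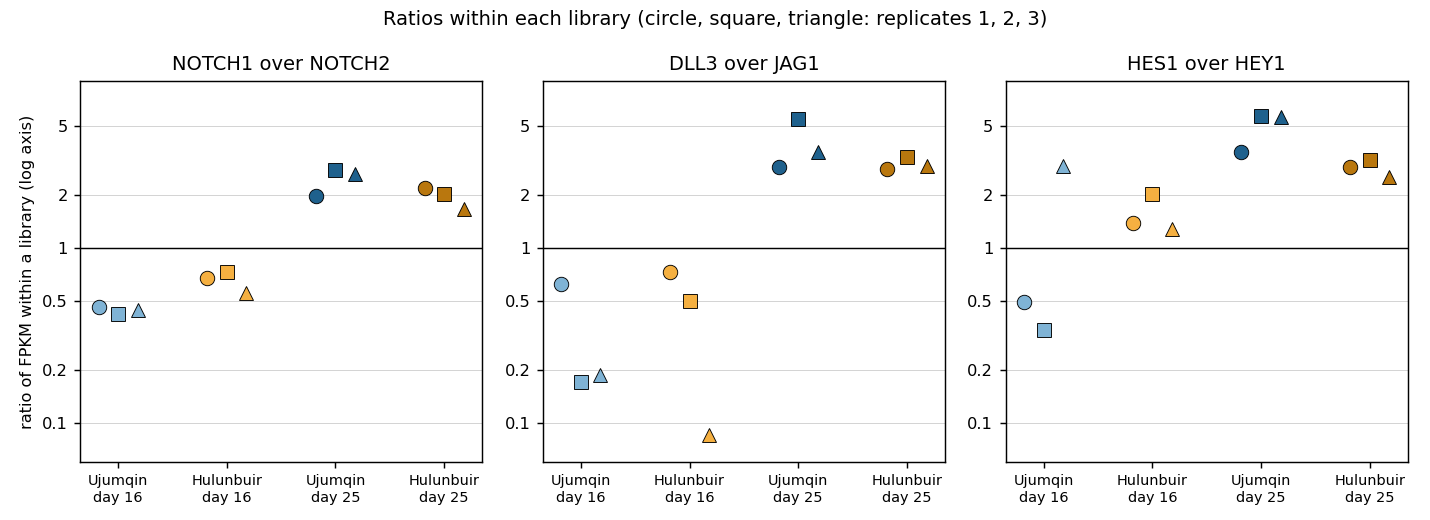
Ratio of FPKM values within each library (log axis) for NOTCH1 over NOTCH2, DLL3 over JAG1 and HES1 over HEY1, with a line at 1. All 6 day 16 libraries lie below 1 and all 6 day 25 libraries above 1 in the panels for the receptors and the ligands.

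The coefficient of variation of FPKM had a median over the 8 genes of 54.6% in Ujumqin and 46.4% in Hulunbuir at day 16, where the median over all genes averaging 1 FPKM or more was 22.8% and 27.7%. At day 16, 5 of the 8 genes in Ujumqin and 6 in Hulunbuir lay above that median; NOTCH1, NOTCH2 and JAG1 lay below it in Ujumqin and LFNG and NOTCH1 in Hulunbuir. At day 25 the medians were 19.3% and 8.84% over the 8 genes and 14.0% and 7.72% over all. Above the median of all genes lay 7 of the 8 in Ujumqin and 5 in Hulunbuir at that age. Hulunbuir day 16 replicate 3 had the highest level among the 6 day 16 libraries for 6 of the 8 genes, and DLL3 was highest in Hulunbuir replicate 1 and HEY1 in Ujumqin replicate 2. Without Hulunbuir day 16 replicate 3, the NRARP breed difference at day 16 went from 0.55 to -0.06. Of the 8 genes, 3 (NOTCH1, LFNG and HES1) had no overlap between breeds in FPKM at day 16, all with Hulunbuir higher, where 13.2% of all genes tested had Hulunbuir higher without overlap.

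Presomitic mesoderm genes were read beside DLL3 because it is expressed in that tissue; these genes were picked after their values were seen. Hulunbuir day 16 replicate 1, with the highest day 16 DLL3 level (12.5 FPKM), was also the highest of the day 16 libraries for TBXT, the Brachyury gene of the tail bud (8.78 FPKM), for TBX6, which specifies presomitic mesoderm (5.43), and for the tail factor genes CDX2 (36.4) and CDX4 (10.9). Hulunbuir replicate 3, with the lowest DLL3 of its group (2.81 FPKM), had 4.51 FPKM of TBXT, 0.822 of TBX6, 2.88 of CDX2, 0.791 of CDX4 and no count of MSGN1, another presomitic mesoderm factor gene. That library was instead the highest at day 16 for genes of formed somites and paraxial mesoderm, with 29.7 FPKM of MEOX1, 20.9 of PAX3, 19.5 of TCF15 and 70.3 of ALDH1A2. Of the 19 genes of the presomitic mesoderm and somite list, 7 were highest at day 16 in Hulunbuir replicate 1 and 10 in Hulunbuir replicate 3. The remaining 2 were MSGN1, highest in Hulunbuir replicate 2 (1.47 FPKM, against 1.06 in replicate 1), and CYP26A1, highest in Ujumqin replicate 2 (11.98 FPKM, against 10.27 in Hulunbuir replicate 1). The day 16 libraries thus differed in both kinds of mesoderm transcript, and the part of this in the spread of DLL3 was not tested. At day 25 TBXT was at 0.0691 to 0.410 FPKM and CDX2 at 0 to 0.790. MSGN1 and CDX4 had no count in any of the 6 libraries of that age, which allows up to 3 counts in each. Other genes of the list were present at day 25, with TBX6 at 1.78 to 3.76 FPKM, RIPPLY2 at 1.15 to 2.38 and PCDH8 at 2.81 to 4.73. DLL3 was at 16.3 to 27.8 FPKM at that age.

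Markers of neural tissue moved with the age differences, and endothelial markers moved the other way. Of the neural progenitor list, 10 of 10 genes tested rose with age in Ujumqin and 5 of 11 in Hulunbuir, and of the neuron list 7 of 7 rose in each; the shares of all genes that rose were 30.2% and 19.9%. The summed level of the 11 neural progenitor genes was 34.6 to 102 FPKM in Ujumqin and 83.1 to 306 in Hulunbuir at day 16, and 356 to 390 and 487 to 497 at day 25. Much of it came from NES, with group means of 62.2 and 159 FPKM at day 16 and 156 and 274.5 at day 25. The NES rise in Hulunbuir was not called (adjusted p = 0.108). The sum of the 7 neuron genes was 8.89 to 18.4 and 17.6 to 83.6 FPKM at day 16, and 319 to 392 and 506 to 533 at day 25. Of 13 endothelial genes, 7 fell in Ujumqin and 11 in Hulunbuir, where 32.5% and 20.9% of all genes fell, and their sum was 159 to 314 FPKM in Ujumqin and 388 to 398 in Hulunbuir at day 16, against 99.8 to 126 and 127 to 131 at day 25. KDR alone averaged 65.4 and 100 FPKM at day 16 and 5.48 and 10.2 at day 25. DLL3 and NRARP thus moved in the direction of the neural lists and NOTCH2 and JAG1 in that of the endothelial list. Other lists fell too: 5 of 9 trophoblast genes tested fell in each breed and none rose. Of 14 yolk sac and liver genes, 11 fell in Ujumqin, and 5 fell and 4 rose in Hulunbuir. Such counts hold genes that passed the filter only through day 16, such as FLT4 in Ujumqin and CDX2, and are description only. The part of tissue makeup in these differences was not tested.

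Blood and yolk sac transcripts also set the groups apart. The summed level of 10 erythroid genes was 934 to 4205 FPKM in Ujumqin and 77.8 to 165 in Hulunbuir at day 16, and 1976 to 2489 and 16360 to 19300 at day 25. The sum of 14 yolk sac and liver genes was 22810 to 57240 and 4069 to 12410 FPKM at day 16, and 4799 to 7258 and 18370 to 19890 at day 25. AHSG alone averaged 20030 and 3802 FPKM at day 16 and 2708 and 10250 at day 25. Trophoblast genes, 10 in all, summed to 186 to 639 and 113 to 265 FPKM at day 16 and 57.5 to 86.6 and 39.4 to 45.0 at day 25, though several of these genes, such as CDX2 and HAND1, are also expressed in the embryo proper. The sum of 10 leukocyte genes was 8.55 to 111 FPKM over the day 16 libraries and 44.2 to 61.1 over those of day 25. Of 6 uterine endometrium genes, 2 to 4 were at 0 in all 3 libraries of a group, with PAEP and PGR, which mark that tissue, at 0 in every library. The list still summed to 19.9 to 82.4 FPKM over the 12 libraries, nearly all of it from SPP1 (group means of 15.7 to 49.5) and MUC1 (1.92 to 17.7), which other tissues also express. SPP1 was lower in Hulunbuir at day 25 (-0.98 ± 0.16 on the log2 scale, adjusted p = 0.00122) and rose with age in Ujumqin (1.70 ± 0.41, adjusted p = 0.00945), and MUC1 fell with age in Ujumqin (-3.07 ± 0.52, adjusted p = 0.00212). The part of these tissues in the breed and age differences was not tested.

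**Figure D4:**
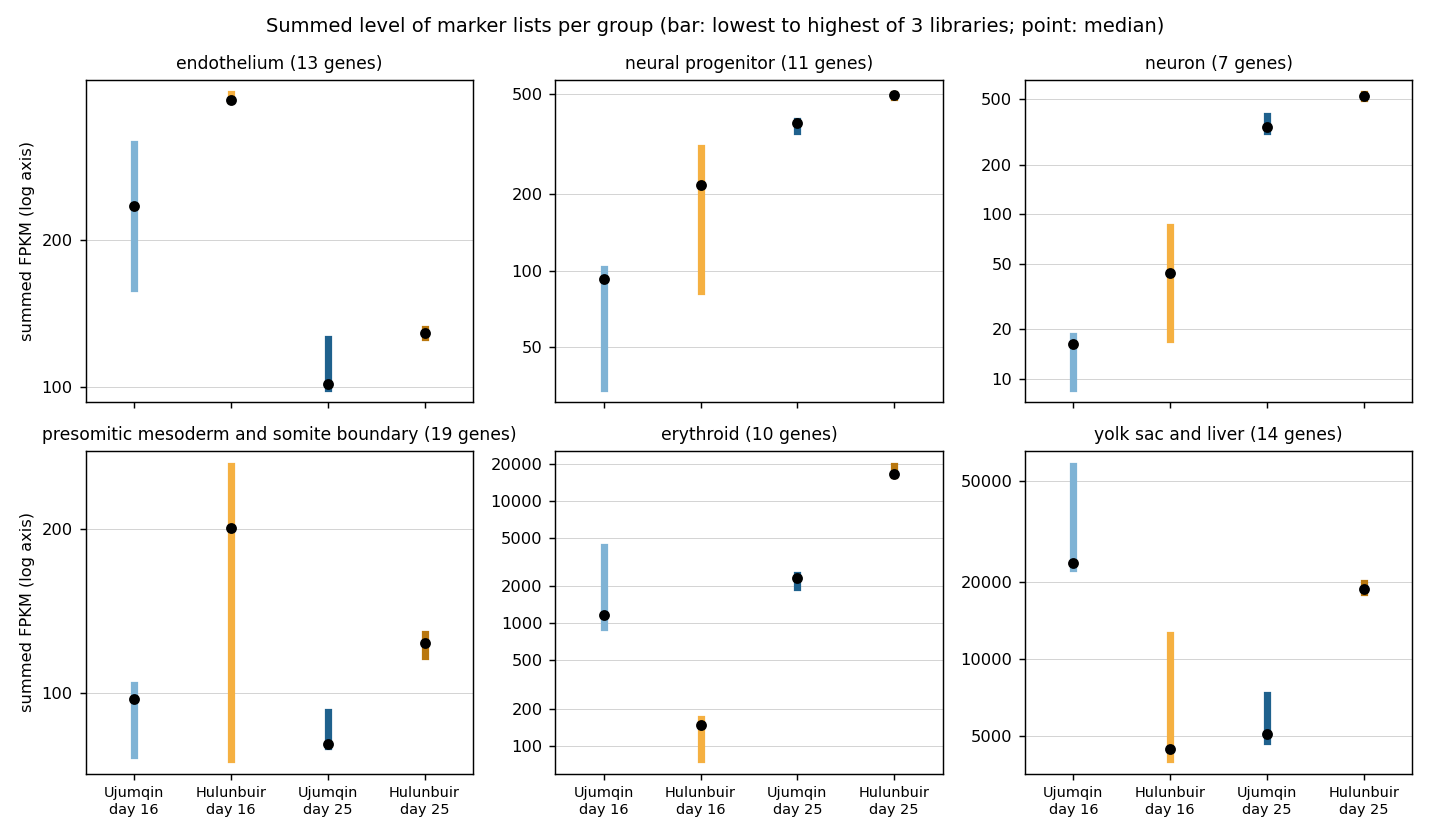
Summed FPKM (log axis) of 6 gene lists in each group, as a bar from the lowest to the highest of 3 libraries with a point at the median. Neural sums were higher and endothelial sums lower at day 25 than at day 16, and the erythroid sum of Hulunbuir went from 77.8 to 165 at day 16 to 16360 to 19300 at day 25.

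Scaling bears on the breed comparison at day 25. The median gene was 0.35 higher in Hulunbuir in log2 FPKM, and 0.03 in the TMM-scaled fit. In FPKM, 7 of the 8 genes had every Hulunbuir library above every Ujumqin library, where 50.5% of all genes did, and only HES1 overlapped. In TMM-scaled CPM, 3 of the 8 did (LFNG, NOTCH2 and HEY1), where 28.4% of all genes did. With total count scaling in place of TMM, 5986 genes were called higher and 1498 lower, against 3402 and 3326, and DLL3 was then called higher too (0.44, adjusted p = 0.0138) and HES1 turned to 0.19 (adjusted p = 0.19). The LFNG difference was 1.20 to 1.70 over all alternatives.

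Gene length went with the age changes over all genes. The shortest 25% of genes had a median log2 change of 0.61 in Ujumqin and 0.40 in Hulunbuir, and the longest 25% had medians of -0.35 and -0.31, with a Spearman correlation of length and change of -0.21 over 13555 genes and -0.25 over 13895 genes. Genes are not independent replicates, and the lengths are those that the deposited counts and FPKM give. NOTCH2, NOTCH1 and JAG1, which fell in Hulunbuir, were longer than 98.1%, 95.5% and 87.1% of the genes tested, and NRARP was longer than 5.25%. DLL3 was longer than 60.1%, LFNG than 34.3%, HEY1 than 28.8% and HES1 than 23.2%. HEY1, among the shorter genes, had negative age changes that were not called in the edgeR fit of 2 groups, and DLL3, among the longer ones, rose. The part of length in the age changes of these genes was not tested.

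The rest of the pathway was read through lists drawn up by role, each set against the shares of all genes. These shares were 30.2% that rose and 32.5% that fell with age in Ujumqin, 19.9% and 20.9% in Hulunbuir, and 24.9% higher and 24.3% lower in Hulunbuir at day 25. Sugar-transfer enzymes that act on the receptors fell with age: 5 of 7 genes tested did in each breed, with a median log2 change of -1.07 in Ujumqin and -0.99 in Hulunbuir, against -0.07 and -0.01 over all genes. POGLUT1, which adds glucose to the receptor's EGF repeats, fell by 1.79 ± 0.25 in Ujumqin (adjusted p = 0.00097) and by 1.38 ± 0.16 in Hulunbuir (0.00108). GXYLT1, which extends that sugar with xylose, fell by 1.86 ± 0.29 (0.00143) and 1.69 ± 0.35 (0.00935). MFNG, the Manic fringe gene, had changes of -0.27 ± 0.30 (0.461) and -0.06 ± 0.29 (0.891).

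Of 9 cleavage proteases, 6 fell with age in each breed, where 32.5% and 20.9% of all genes fell, and 1 rose in Ujumqin. ADAM10, which makes the first ligand-dependent cut, went from 29.4 ± 2.90 to 4.33 ± 1.51 FPKM (mean ± SD, n = 3) in Ujumqin and from 30.3 ± 4.10 to 9.36 ± 0.470 in Hulunbuir. Its log2 changes were -2.64 ± 0.23 (adjusted p = 0.00023) and -1.82 ± 0.14 (0.00024). ADAM17 fell by 1.70 ± 0.17 (0.00033) and 1.31 ± 0.14 (9.0e-04). PSENEN, the smallest subunit of gamma-secretase, was the gene that rose in Ujumqin (1.14 ± 0.18, adjusted p = 0.0016). At day 25, 4 of the 9 were higher and 2 lower in Hulunbuir. PSENEN was among the lower ones, with a log2 difference of -0.61 ± 0.08 (adjusted p = 0.00051).

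Among other ligands and receptors, 4 of 8 genes rose and 1 fell in Ujumqin, and 3 of 7 rose and 3 fell in Hulunbuir. DLL4, the Delta ligand of arteries and sprouting vessels, fell by 2.09 ± 0.47 in Ujumqin (adjusted p = 0.00706) and by 2.22 ± 0.22 in Hulunbuir (0.00066). DLK1, a Delta-like protein of growing fetal tissues, rose by 3.05 ± 0.46 (0.00136) and 2.32 ± 0.27 (0.00112). NOTCH3, the receptor of vessel-wall muscle cells, reached 6.92 ± 1.42 FPKM in Ujumqin embryos and 16.9 ± 0.620 in Hulunbuir embryos at day 25 (log2 difference 0.97 ± 0.11, adjusted p = 0.00024), and DNER, a ligand of neurons, was higher by 0.97 ± 0.24 (0.00962). NOTCH4, an endothelial receptor, was 1 of 2 genes of this list with an interaction: 1.80 ± 1.02 and 7.81 ± 0.671 FPKM in Ujumqin and Hulunbuir at day 16 and 2.79 ± 0.154 and 3.74 ± 0.472 at day 25 (interaction -2.02 ± 0.45, adjusted p = 0.0118).

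Of 5 other repressor genes of the HES and HEY list tested in each of these comparisons, 1 rose with age in Ujumqin, 2 rose and 1 fell in Hulunbuir, and 2 were higher and 1 lower in Hulunbuir at day 25. HES5, the Notch target of neural progenitors, had 1.19 ± 1.60 FPKM in Ujumqin embryos and 4.21 ± 5.26 in Hulunbuir embryos at day 16, and 23.1 ± 1.55 and 64.8 ± 1.98 at day 25. Its day 16 libraries held 0, 0.566 and 3.015 FPKM in Ujumqin and 2.516, 0 and 10.1 in Hulunbuir. In the age comparisons it thus reached 1 FPKM in 3 libraries only through day 25. The adjusted p of its age changes and its place in the counts of genes that rose are therefore description only. HES5 rose with age by 4.41 ± 1.14 on the log2 scale in Ujumqin (adjusted p = 0.0125) and by 3.93 ± 1.11 in Hulunbuir (0.0279). It was higher in Hulunbuir at day 25 by 1.16 ± 0.10 (7.5e-05). HES1, by contrast, had no called breed difference at that age; the contrast between the genes was not tested. HEYL, a target in smooth muscle and other mesoderm, was higher in Hulunbuir at day 25 by 1.29 ± 0.15 (0.00032) and rose with age there by 1.81 ± 0.54 (0.034), with a change of -0.71 ± 0.55 in Ujumqin (0.287). The gene that was lower at day 25 and fell in Hulunbuir was BHLHE40, a related repressor outside both families (-3.56 ± 0.36, adjusted p = 0.00014, and -2.36 ± 0.39, 0.00381). HEY2 and HES3 passed the threshold in none of the 3 comparisons.

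In the nuclear complex, 3 of 14 genes rose and 8 fell with age in Ujumqin, and 3 rose and 3 fell in Hulunbuir. RBPJ, the DNA-binding partner of the Notch intracellular part, fell by 1.20 ± 0.20 in Ujumqin (adjusted p = 0.00209), with a change of -0.71 ± 0.26 in Hulunbuir (0.0598). At day 25, 8 of the 14 were higher and 2 lower in Hulunbuir. MAML3, a Mastermind coactivator, was higher by 1.51 ± 0.22 (0.00087) and TLE1, a Groucho co-repressor that HES proteins recruit, by 0.57 ± 0.08 (0.00053), whereas HDAC1 was lower by 0.60 ± 0.08 (0.00046) and RBPJ had a difference of 0.21 ± 0.11 (0.158). Of the genes for trafficking and turnover, 5 of 16 were higher and 4 lower at day 25, with DTX4, a Deltex ubiquitin ligase, higher by 2.05 ± 0.18 (8.2e-05) and NEURL1, a Neuralized ubiquitin ligase, lower by 0.64 ± 0.07 (0.00019). With age, 5 of 15 rose and 4 fell in Ujumqin and 3 of 16 rose and 3 fell in Hulunbuir, near the shares of all genes (30.2% and 32.5%, and 19.9% and 20.9%). By the pathway labels deposited with the table, 36 Notch pathway genes were tested in these comparisons, of which 11 rose and 14 fell in Ujumqin, 7 rose and 10 fell in Hulunbuir, and 13 were higher and 8 lower in Hulunbuir at day 25. The rises in both breeds and the lower genes of day 25 were near the shares of all genes (30.2%, 19.9% and 24.3%).

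**Figure D5:**
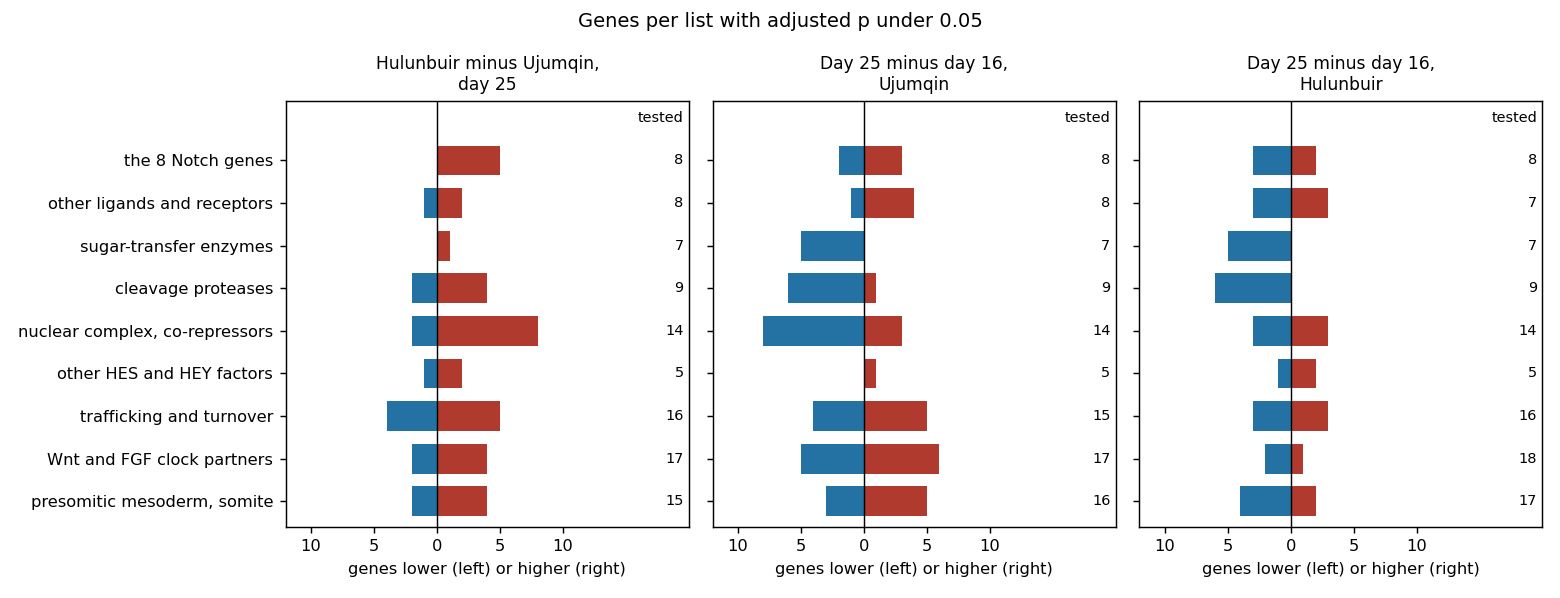
Number of genes with adjusted p under 0.05 per list, to the left for lower and to the right for higher, with the number tested at the right edge, for the breeds at day 25 and the ages of each breed. Sugar-transfer enzymes (5 of 7 fell) and cleavage proteases (6 of 9 fell) lie to the left in both age panels.

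The Wnt and FGF partners of the clock were mixed. With age, 6 of 17 genes rose and 5 fell in Ujumqin, and 1 of 18 rose and 2 fell in Hulunbuir. ETV4, an FGF target, rose by 1.75 ± 0.31 in Ujumqin (adjusted p = 0.00253) and 0.92 ± 0.16 in Hulunbuir (0.00467), and the related ETV5 fell by 2.67 ± 0.49 (0.00293) and 2.05 ± 0.33 (0.00374). At day 25, 4 of 17 were higher in Hulunbuir and 2 lower, where 24.9% and 24.3% of all genes were, so that the count of higher genes was near that of genes at large. DUSP6 and DUSP4, phosphatases that FGF signals switch on to limit themselves, were higher by 0.76 ± 0.11 (0.00068) and 1.38 ± 0.26 (0.00304), and NKD1, a Wnt feedback inhibitor, was lower by 0.99 ± 0.12 (0.00039). AXIN2, the Wnt feedback gene that cycles in the mouse clock, had a lower age change in Hulunbuir than in Ujumqin (interaction -1.14 ± 0.32, adjusted p = 0.0301).

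Genes of the presomitic mesoderm and of somite boundaries were also mixed: 5 of 16 rose and 3 fell in Ujumqin and 2 of 17 rose and 4 fell in Hulunbuir. None of these counts was far above the shares of all genes, 30.2% and 32.5% in Ujumqin and 19.9% and 20.9% in Hulunbuir. TBXT fell by 3.20 ± 0.76 (adjusted p = 0.00889) and 4.40 ± 0.61 (0.00209), and CDX2 by 6.05 ± 1.04 (0.00227) and 5.86 ± 1.32 (0.0123). EFNB2, an ephrin of somite boundaries and arteries, fell by 1.84 ± 0.17 (0.00027) and 1.47 ± 0.19 (0.00167). PCDH8, a protocadherin of forming somites, rose by 3.26 ± 0.45 (0.00095) and 0.88 ± 0.28 (0.0432). At day 25, 4 of 15 were higher in Hulunbuir and 2 lower. MESP2, which sets the somite boundary through Notch, was among the higher ones (1.06 ± 0.24, adjusted p = 0.00674). Hulunbuir embryos averaged 1.48 ± 0.296 FPKM of it, against 0.563 ± 0.0969 for Ujumqin embryos. Every Ujumqin library of that age was under the 1 FPKM of the filter (0.475 to 0.667). MESP2 was thus tested only through its Hulunbuir level, and it was chosen after its values were seen. Its adjusted p and its place in the count are therefore description only.

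Between breeds at day 16, these lists had no call in the edgeR fit: of 95 genes other than the 8, none passed the threshold. An unadjusted p under 0.05 was found for 22 of the 95, near the 20.8% of all genes, while DESeq2 called 17 (11.5% of all genes) and the replicate block 5 (2.5% of all genes). The presomitic mesoderm list had 15 positive and 1 negative log2 difference, with a median of 1.26, and the Wnt and FGF list 15 positive and 4 negative, with a median of 0.86, where the median of all genes was 0.01. In the same 6 libraries, 6 heart muscle genes summed to 72.2 to 274 FPKM in Ujumqin and 561 to 1252 in Hulunbuir. The part of tissue makeup was not tested here either.

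For each gene the most similar pattern was sought over the 12 libraries, as Pearson's r of log2(FPKM + 1) among 8655 genes averaging 5 FPKM or more, as a description. NOTCH2 was matched most closely, by YAP1 (r = 0.992) and EFNB2 (0.991), and DLL3 by ARMC5 (0.98). NRARP was most like NAB2 (0.982), NOTCH1 like NLGN2 (0.979), HES1 like ZNF691 (0.977) and ID3 (0.963), and JAG1 like XPO1 (0.968). LFNG was most like MIPEP (0.947) and HEY1 like MYO18A (0.913), the weakest of the best matches. Among the 8 genes themselves, JAG1 was closest to NOTCH2 (r = 0.874) and NOTCH1 (0.853), and DLL3 and NOTCH2 were the most opposed (r = -0.806). All 12 libraries share the split into 2 ages and 2 breeds, which enters each of these values.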

How the data were processed

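The authors deposited 1 table with a whole-number count and an FPKM value per gene for 12 libraries, per the file headers. Per the submitters' processing notes, cutadapt 1.9, FastQC and the Oar_v3.1 genome were used. No source used here names the aligner, the counter or the FPKM program, or says if strand was used. Deposited counts are unscaled and deposited FPKM equal them up to a factor per gene and per library. A count of 0 is written as an FPKM of 0.0001. For 1276 entries a name came from their NCBI gene number and a RefSeq gene table of another assembly, used for names alone.

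The members and gene lists were chosen with earlier results of these data known, and 195 of 232 list symbols were in the table. Genes reaching 1 FPKM in 3 or more of the libraries fitted were tested with edgeR 4.0.16 (R 4.3.3, TMM, quasi-likelihood, two-sided, Benjamini-Hochberg) on the 6 libraries of 2 groups, or on all 12 for the interaction. A standard error is the log2 change over the square root of F, and a 95% interval uses the t distribution with the fit's total degrees of freedom (7.14 to 11.34). From each list the text names up to 2 called genes per direction with the smallest adjusted p (1 FPKM or more as the mean of the higher group) and up to 2 uncalled ones with the highest mean; TBXT in Ujumqin, MESP2 between breeds, and the per-library mesoderm values were chosen after seeing them. Similar patterns were ranked as the 3 genes with the highest r. No sequence is printed.

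In counts simulated with the spread of each age (200 of 14595 genes changed), the fit of 2 groups recovered 17% of 4-fold changes for breed at day 16, with 2 of 19 calls false, and 85% at day 25, with 14 of 164 false. For age it recovered 45% in Ujumqin, with 11 of 61 calls false, and 53% in Hulunbuir, with 8 of 62 false, and for the interaction 37%, with 8 of 47 false. A fit of all 12 libraries gave 67 false of 160 calls at day 16, because the spread differs between ages. Replicates correlated at r = 0.899 to 0.983 and none was a copy of another. Deviations from the group means of same-numbered libraries correlated at 0.144, 0.293 and 0.371 between breeds at day 16. Those of differently numbered libraries correlated at -0.332 to 0.0167 there. In the other comparisons same-numbered libraries correlated at -0.0539 to 0.0791. Deviations cancel out within a group, which ties these values to each other, and no source used here says that the numbers pair samples. The main fit has no pairing, and the replicate block is an alternative. The table held 0 columns of other samples and 0 entries that name no gene. Alternatives were total count and RLE scaling, 2 other filters, DESeq2 1.42.0, limma 3.58.1 on log2(FPKM + 1) and log2(FPKM + 0.1), voom with group weights, all 12 libraries in 1 fit, a replicate block and each library left out. The voom fit of all 12 libraries was added after seeing the data. Intervals cover the spread between libraries as fitted.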

Additional observations from a re-analysis of the deposited data

How the results depend on the processing

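Of 712 values of the 8 genes under alternatives, 623 kept their direction and side of the threshold, 43 lost and 17 gained a call and 29 changed sign, all of the latter without a call. NOTCH2 with age in both breeds and DLL3, HES1 and NRARP with age in Ujumqin kept their calls in all 17 alternatives. Between breeds at day 16, genes called went from 3 to 2459 with 2 of the 8 in the fit of all 12 libraries, to 487 in voom of all 12, to 1526 with 1 of the 8 in DESeq2 and to 0 to 215 without single libraries. Between breeds at day 25 they went from 6728 to 2440 in the fit of all 12 libraries, and the members called from 5 to 0 there, to 3 in voom of all 12 and to 1 to 5 without single libraries. With age in Hulunbuir, members called went from 5 to 3 in limma on log2(FPKM + 1) and on log2(FPKM + 0.1) and to 1 to 5 without single libraries, where genes called were 2607 to 6385. In the interaction, members called went from 0 to 1 (HES1) in DESeq2, in voom and in some fits without 1 library (0 to 1), and genes called from 2804 to between 1549 and 3323 without single libraries. The cause was not tested, except that such fits hold fewer samples.

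Pairing by replicate number: with the replicate block, 332 genes were called between breeds at day 16 (none of the 8), HEY1 lost its day 25 breed call (0.62, adjusted p = 0.061), HES1 gained the interaction (1 of the 8), and no other call of the 8 changed.

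The values that changed sign follow. HEY1 between breeds at day 16 was 0.25 in voom of all 12 libraries, 0.24 in voom, 0.05 with total count scaling, 0.17 with the block, 0.20 and 0.23 in limma on log2(FPKM + 1) and log2(FPKM + 0.1), and -0.49 to 0.74 without single libraries (0.74 without Ujumqin replicate 2 and 0.15 without Hulunbuir replicate 2). NRARP there was -0.06 to 1.24 without single libraries, the lowest without Hulunbuir replicate 3. HES1 between breeds at day 25 was 0.19 with total count scaling and in both limma fits. LFNG with age in Ujumqin was -0.71 to 0.27 without single libraries, the highest without day 16 replicate 1, and in Hulunbuir it was 0.14 with total count scaling, 0.10 and 0.12 in limma, and 0.00, 0.05 and 0.03 without day 16 replicate 3 and day 25 replicates 1 and 2. In the interaction, NRARP was 0.06 with total count scaling, 0.26 and 0.07 in limma, and -0.87 to 0.42 without single libraries, with 0.16, 0.42 and 0.00 without Ujumqin day 16 replicate 2, Hulunbuir day 16 replicate 3 and Ujumqin day 25 replicate 2. There JAG1 was 0.01 in limma on log2(FPKM + 0.1). Without single libraries JAG1 was -0.54 to 0.03, LFNG -0.30 to 0.63 and HEY1 -0.17 to 1.09, turning without Hulunbuir day 16 replicate 3, Ujumqin day 16 replicate 1 and Ujumqin day 16 replicate 2.

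With total count scaling, calls split 3195 higher to 2037 lower with age in Hulunbuir and 1990 to 722 in the interaction, against 2765 to 2910 and 1298 to 1506. In limma on log2(FPKM + 1), breed calls at day 25 split 6114 higher and 1499 lower in Hulunbuir. Low counts limit NRARP (8 to 115) and LFNG (40 to 244).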
